A study of Homo sapiens with 18 samples.

Results

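The RNA of 8 genes for surface receptors of bacterial products was followed in THP-1, an established human line of monocyte-like cells derived from an acute monocytic leukaemia. The genes were TLR4, CD14 and LY96, whose products form the lipopolysaccharide (LPS) receptor complex, CD180, and the surface Toll-like receptors TLR1, TLR2, TLR5 and TLR6. They were taken as the rows of the count table whose Ensembl identifier maps to these symbols, and all 8 of 8 were found among 63677 genes. Cells of the WT condition received no siRNA, SCR cells a scrambled control siRNA, and KD cells an siRNA against TRAFD1, both siRNAs at 25 nM. At 72 h after transfection the cells were kept for 4 h without LPS (unstimulated) or with LPS at 10 ng/ml, as the labels give it, whereas another source of the study gives a different LPS time. The labels differ on WT, which is called untreated in one place and treated with the transfection mix in another, so that effects of the transfection reagent and of an siRNA cannot be told apart in any comparison with WT. There were 3 libraries in each of these 6 groups, with the numbers 1 to 3 when unstimulated and 4 to 6 after LPS. No source says that the 3 libraries came from separate experiments, so p-values measure the spread between these libraries.

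LPS is bound by LY96 (MD-2), a small secreted protein that sits on the outer part of TLR4, after CD14 has handed the LPS molecule over. TLR4 then signals from the membrane through TIRAP and MYD88, and after uptake through TICAM2 and TICAM1, which leads to NF-kB and interferon genes. TLR2 pairs with TLR1 or TLR6 to bind bacterial lipoproteins, TLR5 binds flagellin, and CD180, a relative of TLR4 that lacks the signalling domain, binds LY86 (MD-1). Monocytes are known for high CD14 and for TLR4, TLR2 and LY96.

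In GRCh37, TLR4 (ENSG00000136869) lies on chromosome 9 at 120466453 to 120487013 on the plus strand, CD14 (ENSG00000170458) on chromosome 5 at 140011313 to 140013285 on the minus strand and TLR2 (ENSG00000137462) on chromosome 4 at 154605222 to 154627412 on the plus strand. CD180 (ENSG00000134061) lies on chromosome 5 at 66475441 to 66492627 on the minus strand, LY96 (ENSG00000154589) on chromosome 8 at 74903627 to 74941314 on the plus strand and TLR5 (ENSG00000187554) on chromosome 1 at 223282746 to 223316590 on the minus strand. TLR1 (ENSG00000174125, 38792298 to 38858438) and TLR6 (ENSG00000174130, 38824518 to 38858438) overlap on the minus strand of chromosome 4. At the downstream ends of the 8 genes no exon of another gene was annotated. Which gene end was counted is not clear from the study's methods. The upstream ends, where TLR1 and TLR6 share the boundary 38858438, were not checked.

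Values are CPM, counts for every 1000000 counts of a library whose total was scaled by TMM. The libraries were read from the 3′ end of RNA, so that 1 read stands for 1 transcript and levels of different genes can be set side by side without a correction for length. Library totals ran from 8206023 to 22344279 counts, and the 3 counts that a count of 0 allows came to between 0.133 and 0.378 CPM, a limit of counting only. TRAFD1 averaged 8.67 CPM in unstimulated KD against 23.7 in SCR (log2 fold change -1.45, adjusted p = 0.0277, edgeR quasi-likelihood test) and 14.5 against 22.7 with LPS, where it did not pass the test. The unstimulated call was lost in the fit of the compared libraries alone (adjusted p = 0.0847) and without SCR library 1 (0.119) or 3 (0.112) or KD library 2 (0.0640). TNF, IL1B, CXCL8 and NFKBIA rose with LPS in all 3 conditions (log2 fold changes of 1.40 to 4.90). Among 15 myeloid markers the summed level lay between 1736 and 2231 CPM, while 11 macrophage markers summed to 4.54 to 12.3 CPM and 17 markers of other cell types to 3.34 to 7.34 CPM.

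The members spanned a wide range of levels. As counted, TLR2 was highest at a median of 33.9 CPM over the 18 libraries, followed by CD14 at 14.7 and TLR4 at 8.22. TLR6 (3.60 CPM), CD180 (3.44), TLR1 (3.26) and LY96 (2.02) were lower, and TLR5 was lowest at 0.682 CPM, with 4 to 26 counts in a library. LY96 was also thinly counted, with 4 to 77 counts in a library, although its product is a partner of TLR4 in the receptor. TLR2 alone took 25.5% to 59.6% of all counts of the 8 genes in a library. At the 3′ ends, taken as the last 500 bases of a gene, TLR6 shared at most 22 of 465 stretches of 36 bases with any 1 other gene. It shared stretches with many genes, and their total was not counted. TLR1 shared 4 of 465 with TLR6, and TLR2 shared 1 with another gene. This makes low counts of TLR6 and TLR1 uncertain.

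**Figure D1:**
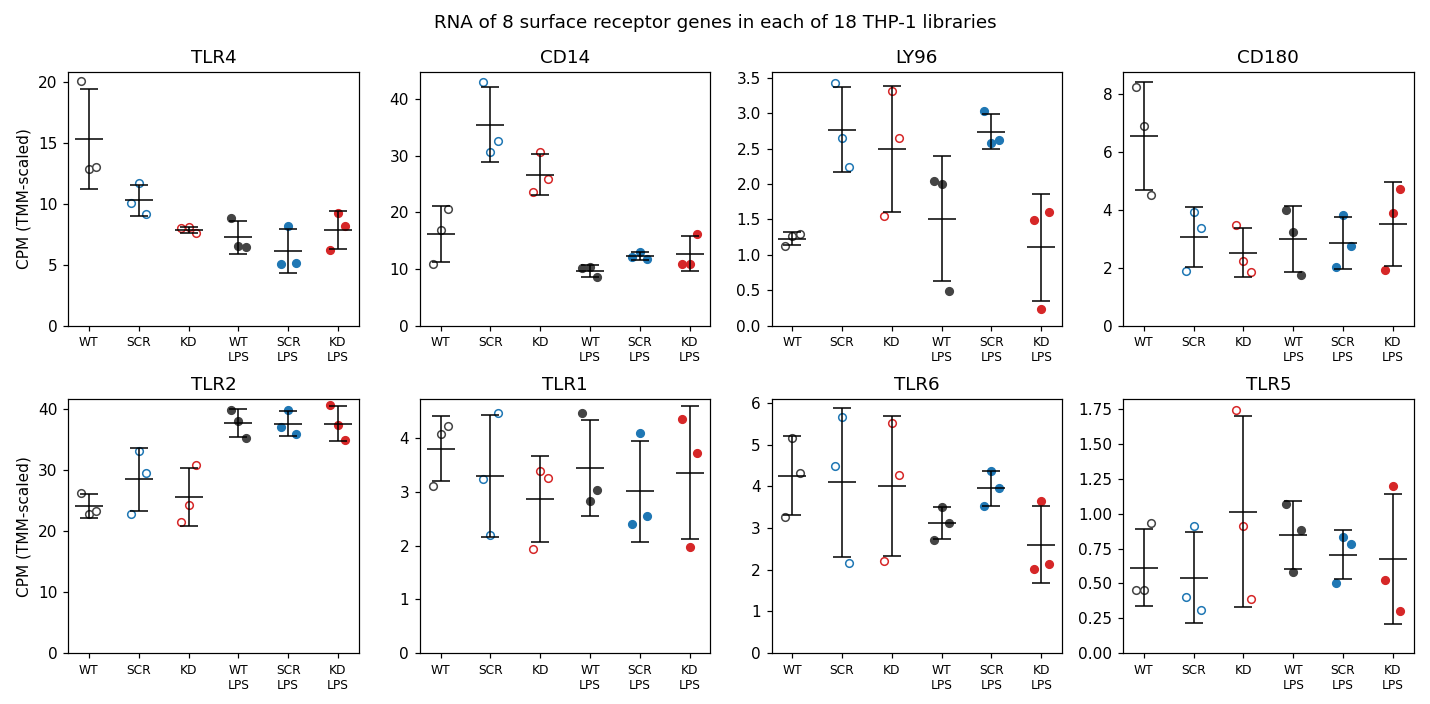
Level of each of the 8 receptor genes (y axis, TMM-scaled CPM from 0) in each library, by group (x axis, open points without LPS and filled points with LPS). The horizontal line is the mean and the bars are the SD of 3 libraries. Without LPS the means of CD14 and TLR4 differ between WT, SCR and KD. Against WT, CD14 passed the test in SCR and KD, and TLR4 in KD only. Neither gene passed in KD against SCR, and with LPS no difference between conditions passed the test. TLR2 lies between 34.8 and 40.5 CPM in all 9 libraries with LPS.

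The start regions of CD14, TLR4, TLR2 and CD180 are shown because these 4 genes passed the test in at least 1 comparison below. Each window runs from 250 bases before to 50 bases after the start that RefSeq gives the gene, is written 5′ to 3′ in the direction of the gene, and was taken from RefSeq (GRCh38.p14). An exact match placed them in GRCh37 at chr5:140012711-140013010 (minus strand) for CD14, chr9:120466431-120466730 (plus) for TLR4, chr4:154605182-154605481 (plus) for TLR2 and chr5:66492578-66492877 (minus) for CD180. The RefSeq start lies 525 bases inside the CD14 gene as bounded above, 228 inside TLR4, 210 inside TLR2 and 0 inside CD180, so that the CD14 window lies within that gene and those of TLR4 and TLR2 largely so. Capitals mark GAGGAA, a motif that the ETS factor PU.1 binds, in CD14 and TLR4, and TGANTCA, the AP-1 motif, in CD14 and CD180. In TLR2 they mark a loose frame of an NF-kB site (GGG and CC with any 5 bases between). Matches on either strand are marked.
CD14: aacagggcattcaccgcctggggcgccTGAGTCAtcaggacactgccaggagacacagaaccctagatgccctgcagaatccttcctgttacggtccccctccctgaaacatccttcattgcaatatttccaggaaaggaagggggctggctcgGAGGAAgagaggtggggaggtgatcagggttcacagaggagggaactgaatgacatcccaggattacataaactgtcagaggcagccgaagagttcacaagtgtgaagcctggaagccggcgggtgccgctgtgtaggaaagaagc
TLR4: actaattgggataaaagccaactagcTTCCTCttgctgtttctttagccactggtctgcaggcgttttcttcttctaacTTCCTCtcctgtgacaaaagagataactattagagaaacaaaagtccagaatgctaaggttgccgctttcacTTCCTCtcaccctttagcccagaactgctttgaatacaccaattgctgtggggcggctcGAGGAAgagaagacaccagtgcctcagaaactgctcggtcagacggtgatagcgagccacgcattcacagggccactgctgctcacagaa
TLR2: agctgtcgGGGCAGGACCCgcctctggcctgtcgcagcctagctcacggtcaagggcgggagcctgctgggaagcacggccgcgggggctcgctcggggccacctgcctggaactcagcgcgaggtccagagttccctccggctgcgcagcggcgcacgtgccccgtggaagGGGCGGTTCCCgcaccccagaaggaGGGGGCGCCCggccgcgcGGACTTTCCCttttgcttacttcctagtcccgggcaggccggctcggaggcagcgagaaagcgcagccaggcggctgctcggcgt
CD180: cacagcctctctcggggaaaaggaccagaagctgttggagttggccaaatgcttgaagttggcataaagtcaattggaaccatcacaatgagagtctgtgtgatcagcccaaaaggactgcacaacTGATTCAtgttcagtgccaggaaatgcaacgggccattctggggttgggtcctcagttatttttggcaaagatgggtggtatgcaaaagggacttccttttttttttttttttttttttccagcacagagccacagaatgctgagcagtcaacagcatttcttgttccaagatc

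TLR4 held 4 matches to GAGGAA and CD14 held 1, while TLR2 and CD180 held 0. Other forms of an ETS site were not searched for. A match to GAGGAA was found in 27.9% of all 35116 windows of 300 bases. TLR2 held 6 matches to the NF-kB frame, of which neighbouring matches on opposite strands overlap, and 2 to GGGCGG, the Sp1 box, 1 of them inside a match to the frame. The frame is loose and occurred in 58.7% of all windows, and the Sp1 box in 45.0%. TLR4 also held 1 Sp1 box, and TGANTCA, present in 7.71% of windows, had 1 match in CD14 and 1 in CD180. TATAAA, present in 11.5%, had 0 matches in the members' windows. Windows were held for 6 of the 8 members, not for TLR1 and LY96, and those not shown had 6 matches to the frame and 2 to the Sp1 box (TLR5) and 1 to GAGGAA (TLR6). A match describes letters in the window and not a bound site.

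The first question was how LPS moved these receptors. Averaged over WT, SCR and KD, 3 of the 8 members passed an adjusted p of 0.05, TLR2 upwards and CD14 and TLR4 downwards, and 33.0% of the 16678 genes tested were called. Within conditions, 3 members were called in WT (background 14.3% of genes), 2 in SCR (17.2%) and 2 in KD (11.5%). TLR2 was the only member called upwards in any of these 4 tests. LY96, TLR1, TLR5, TLR6 and CD180 were called in none of them. The median log2 fold change of the 8 members in the average response was -0.27, against -0.02 over all genes tested.

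CD14, the co-receptor that passes LPS on, had the largest average fall of the 8. In SCR it stood at 43.1, 30.7 and 32.7 CPM without LPS and at 12.1, 13.1 and 11.8 CPM with LPS, so that the groups lay far apart. In KD it went from 23.6, 30.7 and 25.8 CPM to 10.9, 11.0 and 16.2 CPM, again without overlap. In WT the values were 10.9, 16.9 and 20.7 CPM without LPS and 10.1, 10.4 and 8.52 CPM with it, and the lowest unstimulated library stood just above the LPS libraries. The log2 fold change was -1.53 ± 0.21 (SE) in SCR (adjusted p = 2.31e-05), -1.07 ± 0.21 in KD (adjusted p = 0.00138) and -0.74 ± 0.21 in WT (adjusted p = 0.0224). Averaged over the conditions CD14 fell by 53.7% (adjusted p = 3.03e-07). The WT call rested on single libraries: it was lost without unstimulated library 2 (adjusted p = 0.0549) or 3 (0.169) and without LPS library 4 (0.0601) or 6 (0.103).

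TLR4, the signalling receptor itself, fell in WT and SCR. Its values in WT were 20.1, 12.9 and 13.1 CPM without LPS and 8.85, 6.52 and 6.46 CPM with LPS. In SCR they were 10.0, 11.7 and 9.16 CPM without LPS and 5.04, 8.20 and 5.17 CPM with LPS. In both conditions every LPS library lay below every unstimulated library. KD differed in that the 3 unstimulated libraries, at 7.99, 8.10 and 7.62 CPM, lay within the range of the LPS libraries at 6.20, 9.24 and 8.23 CPM. The log2 fold change was -1.08 ± 0.22 in WT (adjusted p = 0.00188) and -0.73 ± 0.23 in SCR (adjusted p = 0.0317). In KD it was 0.01 with an interval from -0.46 to 0.47, and its sign turned under most other settings. The SCR call was lost without unstimulated library 1 (adjusted p = 0.0734) or 2 (0.105) and without LPS library 4 (0.138) or 6 (0.141).

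TLR2, the receptor for bacterial lipoproteins, moved the other way and reached nearly the same level in all conditions. It stood at 26.2, 22.7 and 23.3 CPM in unstimulated WT and at 39.7, 37.9 and 35.2 CPM in WT with LPS. In KD it went from 21.5, 24.3 and 30.7 CPM to 40.5, 37.3 and 34.8 CPM, and in SCR from 22.8, 33.0 and 29.4 CPM to 36.9, 39.8 and 35.8 CPM. Every one of the 9 LPS libraries, at 34.8 CPM or more, lay above every one of the 9 unstimulated libraries, at 33.0 CPM or less. The rise was 56.1% in WT (log2 fold change 0.64 ± 0.14, adjusted p = 0.00333), 47.3% in KD (0.56 ± 0.14, adjusted p = 0.0129) and 45.1% on average (adjusted p = 2.99e-05). In SCR the log2 fold change of 0.41 ± 0.14 just missed the threshold (adjusted p = 0.0516), and it passed without SCR unstimulated library 2 (0.0253). The KD call was lost without KD LPS library 4 (adjusted p = 0.0606).

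CD180, the TLR4 relative, had its highest values in unstimulated WT, at 8.25, 6.90 and 4.54 CPM. With LPS the WT libraries held 3.99, 3.26 and 1.76 CPM, below all 3 of them. The log2 fold change of -1.12 ± 0.38 did not pass (adjusted p = 0.0531), and it passed without WT unstimulated library 3 (adjusted p = 0.0388). In SCR and KD the LPS and unstimulated libraries overlapped.

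LY96, the LPS-binding partner of TLR4, was spread over a wide range in KD with LPS, at 1.49, 0.240 and 1.60 CPM, of which the middle value came from 4 counts in a library of 17065865. Without LPS the KD libraries held 1.54, 3.30 and 2.64 CPM, so that the groups overlapped at a single library. The log2 fold change of -1.20 ± 0.52 did not pass (adjusted p = 0.143), and it was -0.69 without KD LPS library 5. TLR6, which pairs with TLR2, averaged 4.26, 4.10 and 4.01 CPM in unstimulated WT, SCR and KD, and 3.12, 3.96 and 2.60 CPM with LPS (average log2 fold change -0.36 ± 0.21, adjusted p = 0.197). TLR1, the other partner of TLR2, averaged between 2.87 and 3.81 CPM in the 6 groups, which all overlapped in order of level. TLR5 averaged between 0.541 and 1.01 CPM. The interval of its average LPS response ran from -0.67 to 0.88 on the log2 scale, so that changes within these limits were not excluded.

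**Figure D2:**
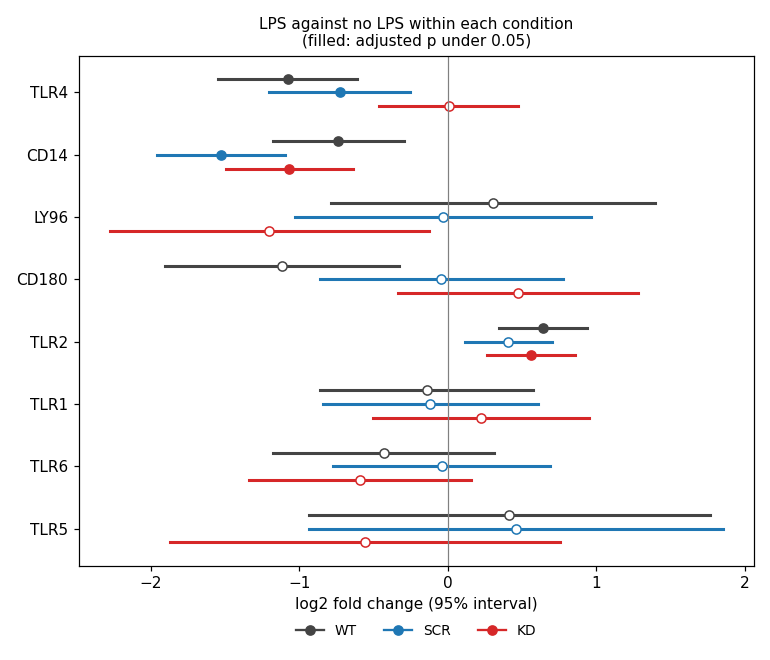
Log2 fold change of LPS against no LPS (x axis) for each receptor gene (y axis) within WT, SCR and KD, with 95% intervals from the fit over all 18 libraries. Filled points passed an adjusted p of 0.05. CD14 lies left of 0 and TLR2 right of 0 in all 3 conditions, and TLR4 lies left of 0 in WT and SCR and at 0.01 in KD.

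The second question was whether the receptors differed between the conditions before LPS. SCR and KD were each compared with the same 3 WT libraries, so both comparisons share them. In SCR against WT, 1 of 8 members was called, CD14 upwards, where 3.23% of all genes were called. In KD against WT, 3 of 8 were called, CD14 upwards and TLR4 and CD180 downwards, where 11.7% of all genes were called.

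CD14 rose 2.20-fold in SCR over WT (log2 fold change 1.14 ± 0.20, adjusted p = 0.00311) and 1.65-fold in KD over WT (0.72 ± 0.20, adjusted p = 0.0232). The lowest SCR library, at 30.7 CPM, and the lowest KD library, at 23.6 CPM, both lay above the highest WT library at 20.7 CPM. TLR4 went the opposite way, with a mean of 15.3 ± 4.09 CPM (SD, n = 3) in WT, 10.3 ± 1.28 in SCR and 7.90 ± 0.250 in KD. It fell by 48.6% in KD (log2 fold change -0.96 ± 0.22, adjusted p = 0.00697), and its log2 fold change of -0.58 ± 0.22 in SCR did not pass (adjusted p = 0.149). The 3 groups did not overlap for TLR4, with the lowest WT library at 12.9 CPM, SCR between 9.16 and 11.7 CPM and the highest KD library at 8.10 CPM.

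CD180 averaged 6.56 ± 1.88 CPM in WT against 3.08 ± 1.04 in SCR and 2.53 ± 0.853 in KD (SD, n = 3). It fell by 61.0% in KD (log2 fold change -1.36 ± 0.38, adjusted p = 0.0229), while the log2 fold change of -1.12 ± 0.37 in SCR did not pass (adjusted p = 0.106). LY96 lay at 1.13, 1.27 and 1.29 CPM in WT, below all SCR libraries (3.42, 2.65 and 2.23 CPM) and all KD libraries (1.54, 3.30 and 2.64 CPM). Neither difference passed, with log2 fold changes of 1.18 ± 0.50 (adjusted p = 0.214) and 1.01 ± 0.50 (adjusted p = 0.211). The log2 fold change of TLR2 in SCR was 0.23 ± 0.14 (adjusted p = 0.436), and TLR1, TLR5 and TLR6 overlapped between the conditions.

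The WT side of the KD comparison leaned on WT library 1, which held the highest TLR4 (20.1 CPM), the highest CD180 (8.25 CPM) and the lowest CD14 (10.9 CPM) of its group. Without it none of the 3 KD calls passed (adjusted p of 0.0595 for TLR4, 0.125 for CD14 and 0.0996 for CD180), although the log2 fold change of TLR4 was still -0.72. Without KD library 2, CD14 (0.0802) and CD180 (0.0595) did not pass, and CD180 did not pass without KD library 3 (0.0890). In a fit of the 6 libraries compared alone the 3 adjusted p were 0.0619, 0.119 and 0.0733. The CD14 call in SCR held when each library was left out in turn, with an adjusted p of 0.0317 at most. The summed level of the 15 myeloid markers, which abundant genes dominate, was 1736 to 1802 CPM in unstimulated WT, 1901 to 2071 in SCR and 2091 to 2189 in KD. Of the 14 tested, 1 was called in SCR against WT (3.23% of all genes) and 3 in KD against WT (11.7%), all upwards. Not every marker followed the sum, and LYZ averaged 43.4 CPM in WT, 35.1 in SCR and 36.4 in KD. TNFAIP3, an inhibitor that NF-kB induces, was also higher without LPS in SCR (log2 fold change 1.10, adjusted p = 0.000827) and KD (0.99, adjusted p = 0.000727, and 0.0577 in the fit of the compared libraries alone), as was TNF (1.46 and 1.45, adjusted p = 9.44e-06 and 1.1e-05). TNFAIP3 was the 1 gene called of 7 inhibitors near the receptors in each comparison, where 3.23% and 11.7% of all genes were called. Of TNF, IL1B, CXCL8 and NFKBIA, 2 were called in each, and IL1B in neither. The part of these differences in the receptor values was not tested.

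With LPS no difference between the conditions passed. None of the 8 members was called in SCR against WT (0.114% of all genes called) or in KD against WT (10.8%) by edgeR, and 0 had an unadjusted p under 0.05 (13.7% and 26.5% of all genes). DESeq2 on the same genes called 0 of the 8, beside 196 and 2299 genes in all. CD14 stood at 10.1, 10.4 and 8.52 CPM in WT, below all SCR libraries (12.1, 13.1 and 11.8 CPM) and all KD libraries (10.9, 11.0 and 16.2 CPM). Its log2 fold changes were 0.35 ± 0.22 (adjusted p = 0.492) and 0.39 ± 0.22 (adjusted p = 0.264). TLR2 averaged 37.6 ± 2.29, 37.5 ± 2.05 and 37.5 ± 2.87 CPM (SD, n = 3) in WT, SCR and KD, and the interval of KD against WT ran from -0.30 to 0.29 on the log2 scale. LY96 had a log2 fold change of 0.84 ± 0.51 in SCR against WT (adjusted p = 0.474), and WT library 6 held only 5 of its counts. TLR6 stood at 3.53, 4.38 and 3.97 CPM in SCR and at 2.72, 3.51 and 3.13 CPM in WT, without overlap, and its log2 fold change of 0.35 ± 0.36 did not pass (adjusted p = 0.715).

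**Figure D3:**
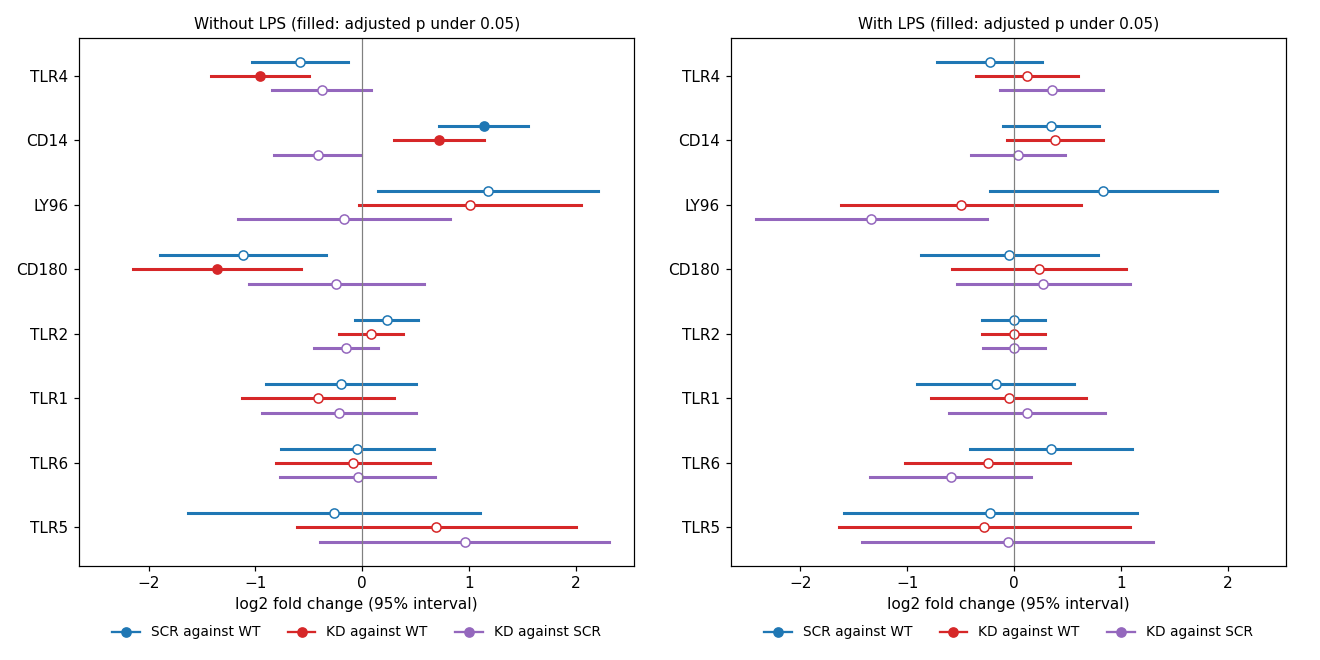
Log2 fold change between conditions (x axis) for each receptor gene (y axis), without LPS on the left and with LPS on the right, with 95% intervals. Filled points passed an adjusted p of 0.05. Without LPS the points of TLR4 and CD180 lie left of 0 and those of CD14 right of 0 in both comparisons with WT, and with LPS no point is filled.

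The comparison that isolates the TRAFD1 siRNA is KD against SCR, since both received an siRNA. By edgeR 0 of 8 members were called without LPS (0.0660% of all genes called), with LPS (0%) and on average (1.71%). DESeq2 on the same genes called 0 of 8 in each, beside 242, 142 and 658 genes in all. At an unadjusted p under 0.05 there was 1 member in each of the 3 tests, CD14 without LPS and LY96 in the other two, where 12.6%, 11.8% and 16.7% of all genes had such a p, so 1 of 8 is near the background. Without LPS, CD14 in KD (23.6, 30.7 and 25.8 CPM) lay just under SCR (43.1, 30.7 and 32.7 CPM), with a log2 fold change of -0.42 ± 0.20 (adjusted p = 0.387). With LPS, LY96 in KD (1.49, 0.240 and 1.60 CPM) lay below SCR (3.03, 2.57 and 2.62 CPM), with a log2 fold change of -1.34 ± 0.52 (adjusted p = 0.317). Without KD library 5 the LY96 log2 fold change was -0.82. On average over both states the log2 fold change was -0.75 ± 0.35 for LY96 (adjusted p = 0.288) and -0.19 ± 0.14 for CD14 (adjusted p = 0.562). For TLR4 it was -0.38 ± 0.22 without LPS (adjusted p = 0.502) and 0.35 ± 0.23 with LPS (adjusted p = 0.566). TLR2 had the narrowest interval, from -0.29 to 0.29 on the log2 scale with LPS.

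Whether the LPS response itself differed between conditions was tested by the interaction of LPS and condition. None of the 8 members was called in KD against SCR (0% of all genes called by edgeR) or in SCR against WT (0.234%). DESeq2 on the same genes called 0 of 8 in both, beside 3 and 85 genes in all. At an unadjusted p under 0.05 there was 1 member in each, against 7.64% and 9.96% of all genes, a share near that of 1 in 8. TLR4 had a response that was 0.73 ± 0.32 higher in KD than in SCR on the log2 scale (adjusted p = 0.632), and the response of CD14 differed by -0.79 ± 0.30 between SCR and WT, with the deeper fall in SCR (adjusted p = 0.432). The values for CD14 and LY96 in KD against SCR were 0.46 ± 0.29 (adjusted p = 0.727) and -1.17 ± 0.70 (adjusted p = 0.710), and that of CD180 in SCR against WT was 1.07 ± 0.55 (adjusted p = 0.518). The TLR4 and CD14 responses are thus not shown to differ between conditions, although TLR4 passed the test of LPS in SCR and not in KD.

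Ratios of counts within a library do not depend on how libraries are scaled, and they set the members side by side. Without LPS, WT libraries held 0.544 to 1.58 reads of CD14 for each read of TLR4, SCR libraries 2.63 to 4.29 and KD libraries 2.95 to 3.79. The WT range lay below both others. With LPS the ratio lay between 1.14 and 1.60 in WT, 1.59 and 2.40 in SCR and 1.19 and 1.97 in KD, so that the conditions overlapped. The ratio of TLR2 to CD14 was 0.529 to 2.40 without LPS over all conditions and 2.15 to 4.13 with LPS, and within each condition the LPS libraries lay above the unstimulated ones. The ratio of TLR2 to TLR4 had a median of 1.76, 2.82 and 3 in unstimulated WT, SCR and KD and of 5.44, 6.92 and 4.23 with LPS. For each LY96 read the WT libraries held 10.1 to 17.8 TLR4 reads without LPS, against 2.94 to 4.41 in SCR and 2.45 to 5.17 in KD. These ratios use the same counts as the tests above and are given as a description.

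**Figure D4:**
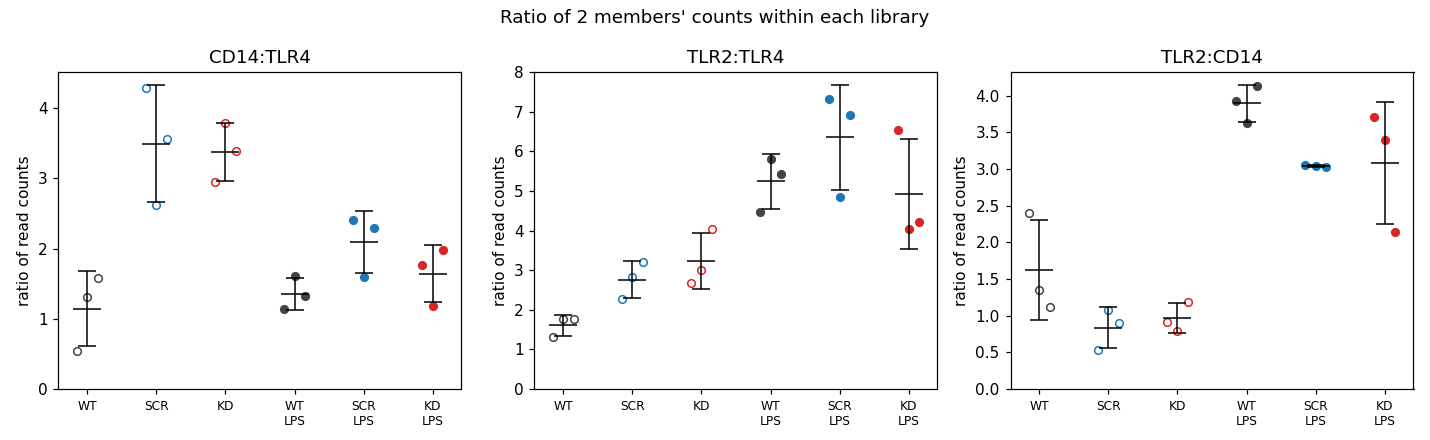
Ratio of read counts of a pair of receptor genes within each library (y axis from 0), by group (x axis, open points without LPS and filled points with LPS), with the mean and SD of 3 libraries. The CD14 to TLR4 ratio without LPS is at most 1.58 in WT and at least 2.63 in SCR and KD, and both TLR2 ratios are higher with LPS than without in every condition.

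Among the members, CD180 followed TLR4 most closely over the 18 libraries (Pearson r = 0.749 of log2 CPM), while TLR2 ran against CD14 (r = -0.648) and TLR4 (r = -0.548), and TLR4 and CD14 were loosely related (r = 0.263). These points share the LPS and siRNA groups, so the correlations describe the group pattern as well as the spread within groups. Of 12482 protein-coding genes outside the members, PAG1 (r = 0.938) and BRI3 (r = 0.933) had the pattern most like CD14, LMBRD1 (r = 0.889) and THRA (r = 0.882) like TLR4, and DTX4 (r = 0.910) and FAM177B (r = 0.906) like TLR2. CRYL1 (r = 0.843) and LMBRD1 (r = 0.820) were most like CD180. For LY96 the genes were C1orf159 (r = 0.846) and KIF4A (r = 0.750), for TLR6 ARID5A (r = 0.794) and RANBP6 (r = 0.784), for TLR1 TMEM44 (r = 0.735) and LONRF3 (r = 0.723), and for TLR5 CACNA1G (r = 0.819) and CD163L1 (r = 0.727). The thin counts of LY96 and TLR5 limit what their correlations say.

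Among the other Toll-like receptors, most of which sense nucleic acids inside the cell, TLR7 and TLR8 rose with LPS. Of TLR3, TLR7, TLR8, TLR9 and TLR10, 3 had enough counts to be tested and 2 rose on average (33.0% of all genes were called), with a median log2 fold change of 1.09 against -0.02 over all genes. TLR7, a receptor of single-stranded RNA, rose with a log2 fold change of 1.59 ± 0.20 (adjusted p = 1.99e-06), from group means of 1.65 to 2.38 CPM to means of 4.87 to 7.23 CPM. TLR8, its relative, rose by 1.09 ± 0.26 (adjusted p = 0.00255), from 1.30 to 1.69 CPM to 2.66 to 3.55 CPM. No gene of this list was called between conditions.

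Downstream of the receptors, 7 of 13 tested adaptors and kinases rose with LPS on average and 1 fell (median log2 fold change 0.28), beside the 33.0% of all genes called. IRAK2, a kinase of the MYD88 pathway, rose by 2.30 ± 0.23 (adjusted p = 9.19e-08), TRAF3, a ubiquitin ligase on the TICAM1 branch, by 0.67 ± 0.06 (6.28e-09), IRAK3, an inhibitory relative of the kinases, by 0.44 ± 0.06 (1.47e-05) and TICAM1 by 0.59 ± 0.10 (8.95e-05), all on the log2 scale. Of 7 inhibitors acting near the receptors, 3 rose and 2 fell (median 0.12, 33.0% of all genes called), and the 5 calls became 3 when SCR unstimulated library 1, SCR LPS library 4 or KD unstimulated library 3 was left out. The weakest of the 5 calls, SIGIRR (adjusted p = 0.0488), was lost in 12 of 18 fits that left out a library. It was also lost in 4 of 6 other alternatives. TNFAIP3, which removes ubiquitin chains from signalling proteins, rose by 2.79 ± 0.10 (adjusted p = 2.5e-15) and CYLD, another such enzyme, by 0.48 ± 0.06 (1.53e-06). NRROS, which holds Toll-like receptors back in the endoplasmic reticulum, rose by 0.39 ± 0.10 (0.00323), and TOLLIP, which restrains IRAK signalling, fell by 0.19 (0.0228). The TOLLIP call was lost with the GC correction (adjusted p = 0.145) and without WT LPS library 6, SCR unstimulated library 1, SCR LPS library 4 or KD unstimulated library 3 (0.0534 to 0.0582).

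Of 9 tested co-receptors and chaperones, 1 rose and 1 fell with LPS on average (median log2 fold change -0.06), where 33.0% of all genes were called. A list of 9 genes is too short to tell its share from that of all genes. The count was 1 without KD unstimulated library 1. HSP90B1, the chaperone that folds Toll-like receptors, rose by 0.40 ± 0.10 (adjusted p = 0.00456) and ITGAM, an integrin of myeloid cells, fell by 0.30 (adjusted p = 0.0218, and 0.0509 without that library). Between conditions without LPS, CD36, a co-receptor of TLR2 with TLR6, was lower in SCR than in WT (log2 fold change -0.53 ± 0.12, adjusted p = 0.0207), a call that was lost in the fit of the compared libraries alone (0.0545), without WT library 1 (0.0997) or 3 (0.0702) and when SCR library 1, 2 or 3 was left out in turn (0.0533 to 0.0814). ITGB2, the partner of ITGAM, was lower in KD than in SCR (-0.54 ± 0.09, adjusted p = 0.0341), which was lost in the fit of the compared libraries alone (0.121), without SCR library 1 (0.214) or 3 (0.0793) and without KD library 2 (0.0693). UNC93B1, which carries Toll-like receptors out of the endoplasmic reticulum, was higher in KD than in WT (0.66 ± 0.14, adjusted p = 0.00409), and not in the fit of the compared libraries alone (adjusted p = 0.0946). ITGB2 (0.0161) and, among the adaptors and kinases, IRAK3 (0.0127) were lower in KD than in WT, and not in that fit (0.187 and 0.149). With LPS, IRAK1 (0.00704) and ITGB2 (0.0264) were lower in KD than in WT and TMED7 (0.0421) was higher. Of the 6 fits that left out a library, the ITGB2 call was lost in 6, that of TMED7 in 5 and that of IRAK1 in 1 (0.0591). The TMED7 call was also lost with the GC correction (0.0805). ITGB2 was the only gene of the 4 pathway lists called in KD against SCR in any state by edgeR. It was called lower without LPS, where 0.0660% of all genes were called. On average over both states it was also lower (adjusted p = 0.0137), where 1.71% of all genes were called. The average call held in all 7 other alternatives (0.0160 at most) and with each library left out in turn (0.0484 at most).

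Of the myeloid markers, 14 of 15 could be tested. CEBPA held only 0 to 2 counts in a library. With LPS on average 2 rose and 2 fell, against 33.0% of all genes called. LST1 (log2 fold change 0.46 ± 0.08, adjusted p = 7.2e-05) and SPI1, the gene of PU.1 (0.35 ± 0.10, adjusted p = 0.0111), were higher, and CEBPB (-0.66 ± 0.07, adjusted p = 5.94e-07) and CD33 (-0.30 ± 0.07, adjusted p = 0.00303) lower. In unstimulated KD against WT 3 rose and 0 fell, against 11.7% of all genes called. They were ELANE (0.67 ± 0.12, adjusted p = 0.00095), CD68 (0.95 ± 0.25, adjusted p = 0.015) and FCER1G (adjusted p = 0.0218). The CD68 call was lost without WT library 1 (0.0821) or 3 (0.0985) and without KD library 3 (0.0713). That of FCER1G was lost without WT library 1 (0.0853) or 2 (0.0839) and without KD library 2 (0.0796). In the fit of the compared libraries alone all 3 were lost (0.0506 for ELANE, 0.122 for CD68 and 0.116 for FCER1G). Of the 17 markers of other cell types, 2 were at 0 in every library. The part of the marker changes in the receptor values was not tested.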

How the data were processed

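QuantSeq 3′ mRNA libraries of 18 THP-1 samples were sequenced. According to the study's methods and the labels, the authors removed low-quality, adaptor and poly-A reads, aligned the rest to GRCh37 with HISAT and counted reads with featureCounts on Ensembl genes restricted to 500 bases at one gene end. The deposited table holds raw read counts, and whether counting used strand is not given in the sources used here. Members and lists were chosen with earlier results of these data known, so no list is independent evidence.

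Counts were fitted with edgeR 4.0.16 (quasi-likelihood test, TMM scaling, R 4.3.3) in 1 model of 6 groups over 16678 genes kept by the filter on low counts, with 13 contrasts and Benjamini-Hochberg adjustment over all genes tested at a threshold of 0.05. Standard errors and 95% intervals come from that fit. Correlations used log2 CPM with a prior count of 2. Genes outside the members were named as those of each list with the smallest adjusted p, at most 4 in a comparison, and as the 2 genes most alike in pattern. Alternatives were DESeq2 1.42.0, RLE scaling, no filter, fits of the compared libraries alone, a GC correction, a replicate block and leaving out each library. The script was tested on simulated data. Library totals, from 8206023 to 22344279 counts, set the precision of low genes. Across same-numbered libraries of SCR and WT with LPS the deviations from the group means correlated (r = 0.261, 0.163 and 0.253), and for the other pairs of groups not all 3 correlations passed 0.1. Promoter windows came from RefSeq and were placed in GRCh37 by exact match. No column was left out.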

Additional observations from a re-analysis of the deposited data

How the results depend on the processing

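Of 195 recomputed counts of members called, 185 stayed within 1.5 times the reported count. This includes comparisons that stayed at 0 members, and the rule allows a change from 3 members to 2. The share therefore says little about single calls. In the fit of the compared libraries alone, 1 member was called for LPS in KD and 0 for unstimulated KD against WT, and without the filter on low counts, as with DESeq2 on the compared libraries without a filter, 2 were called in unstimulated SCR against WT, the added one being CD180 (adjusted p of 0.0367 and 0.0396). Leaving out 1 library gave 1 to 2 members for LPS in SCR, 1 to 2 for LPS in KD and 0 to 3 for unstimulated KD against WT. Of 582 recomputed fold changes, 542 kept direction and side of the threshold, 19 lost a call, 12 gained one and 9 reversed. All 9 were TLR4 with LPS in KD, which lay near 0: the log2 fold change was -0.012 with DESeq2 and -0.012 with RLE scaling, -0.00056 without the filter, -0.0034 with edgeR or DESeq2 on the compared libraries alone, -0.049 with the GC correction and -0.13 to 0.15 when 1 library was left out. The calls of CD180 with LPS in WT were gained with DESeq2 (0.0297), without the filter (0.0161), on the compared libraries alone (0.0324) and with the GC correction (0.0463), and TLR2 with LPS in SCR was called with DESeq2 (0.0355), RLE scaling (0.0493) and on the compared libraries alone (0.0457). TLR2 with LPS in KD was lost on the compared libraries alone (0.0762). The causes were not tested. The replicate block changed no call of a member. With it the CD14 log2 fold change in SCR against WT was 1.17 without LPS and 0.34 with LPS. With LPS, same-numbered SCR and WT libraries correlated weakly (r = 0.261, 0.163 and 0.253). No label says that equal numbers pair libraries. The block was not used for LPS responses, whose groups share no numbers.

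The calls over all genes moved more than those of the members. Over the alternatives that kept all libraries they ran from 0 to 320 in KD against SCR without LPS (11 reported), 0 to 619 with LPS (0) and 239 to 734 on average (286), from 409 to 934 in SCR against WT without LPS (538) and 23 to 593 with LPS (19), and from 280 to 2423 (1951) and 1876 to 3235 (1808) in KD against WT. For LPS in KD they ran from 847 to 2290 (1912), and for the interactions from 0 to 132 (0) and 37 to 241 (39). Leaving out 1 library gave 1 to 52, 0 to 0, 55 to 513, 193 to 510, 0 to 14, 962 to 1934 and 376 to 1428 genes in the condition comparisons in the same order, 1098 to 3150 for LPS in KD, 1789 to 2376 for LPS in SCR (2869) and 17 to 91 for the interaction of SCR against WT (39). Counts of 4 to 77 for LY96 and 4 to 26 for TLR5 in a library give the widest intervals of the 8 members.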
